A study of Mus musculus with 18 samples.

Results

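Peaks of the histone mark H3K9me3 at endogenous retroviruses of the ERVK class, without the intracisternal A particles (IAP), were described across 4 peak lists from mouse CD8+ T cells. A peak was taken when the repeat that the deposited annotation gives for it belonged to the ERVK family and had a name that does not begin with IAP. The rule found 25325 of 375410 peaks: 6990 of 111149 in KO 1, 9128 of 154997 in KO 2, 7182 of 85960 in WT 1 and 2025 of 23304 in WT 2. These peaks carry 127 element names.

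KO libraries came from C57BL/6 mice lacking Ehmt2 (Ehmt2-/-, labelled G9a KO), and WT libraries from Ehmt2+/+ C57BL/6 mice, with 2 libraries each. All 4 were native chromatin immunoprecipitations, cut for 5 min with micrococcal nuclease, from cultured splenic CD8+ T cells that had been stimulated through CD3 and CD28. RNA of other cells was sequenced: CD4+CD8+ G9a KO cells (KO DP, n = 4), CD4-CD8+ G9a KO cells (KO SP, n = 2) and CD4-CD8+ wild-type cells (WT SP, n = 4), from spleen and lymph nodes after 4 weeks of expansion in lymphopenic hosts. The driver that deletes Ehmt2, the deleted exon and whether replicates are separate animals are not stated in the labels, so p-values reflect only how far these libraries vary, and that variation may be technical.

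ERVK elements are relatives of mouse mammary tumour virus. A full copy has an internal part that coded for viral proteins, flanked by a pair of long terminal repeats (LTRs) that carried its promoter; most copies are now solitary LTRs. In mouse cells H3K9me3 at such elements is written mainly by SETDB1, which KRAB zinc finger proteins recruit through TRIM28, while G9a, the product of Ehmt2, chiefly writes H3K9me1 and H3K9me2. Names with -int mark internal parts, and the other names, mostly RMER and RLTR, are counted here as LTRs.

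The lists differed in length, depth and composition. Scores rise in equal steps within each list, and with that step taken as the worth of 1 read, KO 1 was 3.25 times, KO 2 3.39 times and WT 1 2.92 times as deep as WT 2. Satellite peaks held 0.385% and 0.314% of the summed score in the KO lists, against 24.3% and 81.8% in the WT lists. Chromosome X held 384 and 464 peaks in the KO lists, against 3334 in WT 1 and 195 in WT 2. The part that these differences have in the results that follow was not tested beyond the alternatives given with them.

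Peaks at these ERVK elements took a smaller share of both KO lists than of either WT list. They made up 6.29% of the peaks of KO 1 (95% Wilson interval 6.15 to 6.43%) and 5.89% of KO 2 (5.77 to 6.01%), against 8.36% of WT 1 (8.17 to 8.54%) and 8.69% of WT 2 (8.33 to 9.06%); these intervals cover counting error only. The mean share was 6.09% ± 0.283 in KO and 8.52% ± 0.236 in WT (SD, n = 2 each), a difference of -2.43 percentage points. The exact two-sided permutation test over the 4 libraries gave p = 0.333, which is the smallest p that 2 against 2 can give. The groups did not overlap, but this design cannot pass a threshold of 0.05. Peaks at IAP elements had the same order, with 0.369% and 0.366% in KO, against 1.34% and 0.652% in WT. So had peaks at ERV1 elements, with 1.62% and 1.31% in KO, against 2.76% and 2.72% in WT. The order is thus not particular to these ERVK elements.

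By length the order was the same. Peaks at these elements covered 5.46 Mb of KO 1 and 7.55 Mb of KO 2, against 6.14 Mb of WT 1 and 1.54 Mb of WT 2. Those lengths are 6.70% and 5.85% of the peak-covered base pairs in KO, against 8.50% and 9.43% in WT, a difference of -2.69 percentage points (exact permutation test, two-sided, p = 0.333). When each list was reduced to its 23304 highest scored peaks, the share of peaks was 7.78% and 6.54% in KO, against 9.65% and 8.69% in WT.

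The order also held on each of the 19 autosomes, where the share of a chromosome's peaks at these elements was lower in both KO lists than in both WT lists. Across autosomes that share had a median of 6.41% in KO 1 and 5.93% in KO 2, against 8.32% in WT 1 and 9.06% in WT 2. Chromosome 17 had the highest share in KO 1 (8.14%), KO 2 (7.69%) and WT 2 (10.7%), and chromosome 10 in WT 1 (9.65%). On chromosome X the groups overlapped, with 12.2% and 11.6% in KO, against 12.4% and 9.23% in WT.

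**Figure D1:**
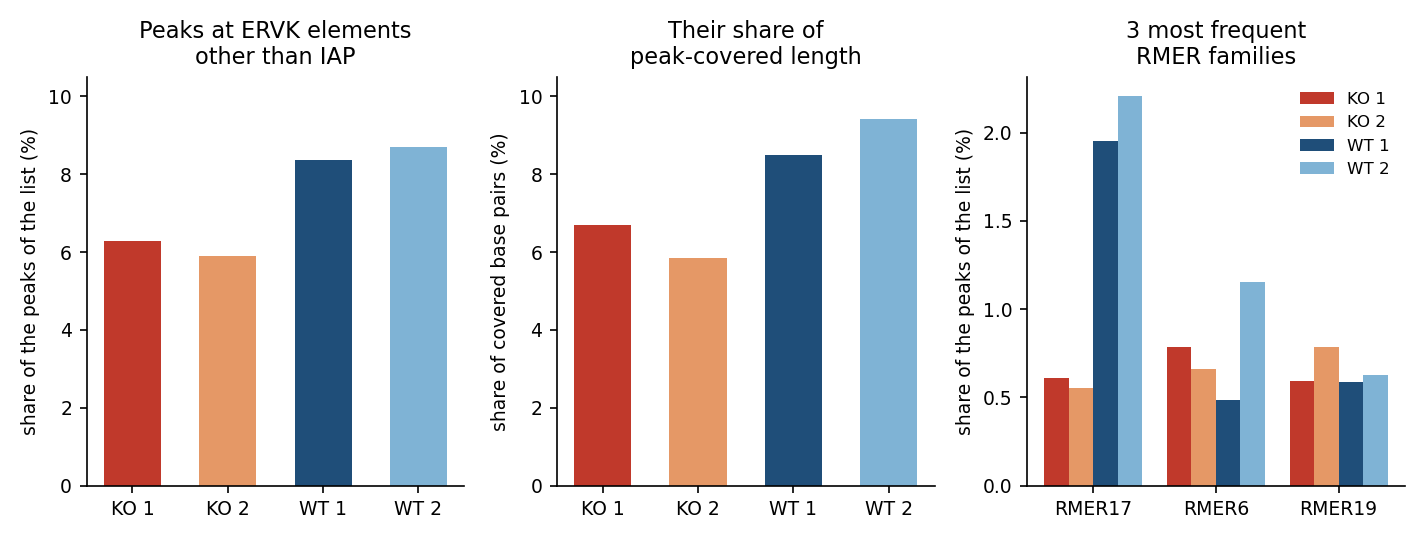
Share of each H3K9me3 list at ERVK elements other than IAP, by peaks (left) and by covered base pairs (middle), and share of peaks at the RMER17, RMER6 and RMER19 families (right), in percent, with 1 bar for each of KO 1, KO 2, WT 1 and WT 2. Both KO bars are lower than both WT bars in the first 2 panels (5.89 to 6.70% against 8.36 to 9.43%) and for RMER17, while RMER6 and RMER19 overlap between genotypes.

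The RMER17 family, 6 LTR names and 2 internal names, held most of that difference. It had 679 peaks in KO 1 and 857 in KO 2, against 1676 in WT 1 and 514 in WT 2. By the mean share of the ERVK peaks over the 4 lists it led the families summed here, but RMER6 had more peaks in KO 1 (870) and KO 2 (1020), and RMER19 more in KO 2 (1215). As a share of the list that is 0.611% and 0.553% in KO, against 1.95% and 2.21% in WT, so the mean was 0.582% ± 0.0410 in KO and 2.08% ± 0.181 in WT (SD, n = 2 each). The difference in RMER17 alone was -1.50 of the -2.43 percentage points. At equal list lengths the RMER17 share was 0.566% and 0.339% in KO, against 2.42% and 2.21% in WT, and without chromosomes X and Y it was 0.596% and 0.543% in KO, against 1.84% and 2.20% in WT. The family was singled out after its values were seen, so its summed share is given with no test.

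Element names were compared with limma on the log2 share of the list, fitted over the 400 repeat names of any family with a mean of at least 10 peaks; 101 of the 127 ERVK names were among them. At an adjusted p under 0.05 (limma, Benjamini-Hochberg over the 400) no name was called, so the share called was 0% of all names and 0 of the 101. At an unadjusted p under 0.05 there were 22 of the 101 and 87 of the 400; no other tool was run. Of these, 19 ERVK names (18.8% of those tested) and 62 of all names (15.5%) had a lower share in KO. The lowest adjusted p of an ERVK name was 0.0590 (limma). Both KO lists were below both WT lists for 34 of the 101 names (33.7%, against 28.5% of all 400), above them for 21 (20.8%, against 33.8% of all 400), and overlapped for 46. The share below was thus near that of all names and the share above was smaller.

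Among the RMER17 LTRs, RMER17B had 149 peaks in KO 1 and 257 in KO 2, against 699 in WT 1 and 133 in WT 2. Its share was 0.134% and 0.166% in KO, against 0.813% and 0.571% in WT, a log2 difference of -2.19 (SE 0.34; adjusted p = 0.0590, limma). Both KO lists were lower, by 4.57-fold on average. RMER17B had the highest mean share of the ERVK peaks over the 4 lists, though RMER6C and RMER19C, among others, had more peaks in both KO lists. The 6 tested RMER17 LTR names all had both KO lists below both WT lists, where 28.5% of all 400 names did. Their log2 differences were -2.19 to -1.59. RMER17A2 had 126 and 140 peaks in KO, against 295 and 80 in WT (log2 -1.76). RMER17A had 93 and 104 in KO, against 207 and 67 in WT (log2 -1.81), and RMER17D2 had 87 and 101 in KO, against 185 and 87 in WT (log2 -1.99). RMER17C had the smallest difference, -1.59, with 115 and 117 peaks in KO, against 142 and 100 in WT. Its WT shares were far apart, at 0.165% and 0.429%, and its log2 difference was -0.90 without WT 2 and -2.28 without WT 1. The internal names RMER17A-int and RMER17C-int overlapped between genotypes.

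The RMER6, RMER19 and RMER16 families did not separate the genotypes. RMER6C, second by mean share of the ERVK peaks over the 4 lists, had 374 and 465 peaks in KO, against 186 and 114 in WT. These are 0.336% and 0.30% of the KO lists, against 0.216% and 0.489% of the WT lists, so the KO values lay between the WT values (log2 -0.04, SE 0.44). RMER6A showed the same order, with 0.236% and 0.195% in KO, against 0.157% and 0.386% in WT. RMER19C had 343 and 506 peaks in KO, against 220 and 80 in WT, or 0.309% and 0.326% in KO, against 0.256% and 0.343% in WT. RMER19B was high in KO 2 alone, at 0.328%, against 0.181% in KO 1 and 0.191% and 0.163% in WT. RMER16-int, an internal part, had 0.163% and 0.114% in KO, against 0.113% and 0.189% in WT. In RMER13B the KO shares of 0.0810% and 0.106% were both below the WT shares of 0.414% and 0.210% (log2 -1.67, SE 0.43; adjusted p = 0.0968, limma).

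MMERVK10C is a group of young elements whose internal part is flanked by RLTR10 LTRs. MMERVK10C-int had 150 and 191 peaks in KO, against 180 and 58 in WT; its share was 0.135% and 0.123% in KO, against 0.209% and 0.249% in WT (log2 -0.83, SE 0.34; adjusted p = 0.212, limma). At equal list lengths that log2 difference was -0.29 (adjusted p = 0.70, limma). The 7 RLTR10 names tested all had both KO lists below both WT lists, where 28.5% of all 400 names did. Their log2 differences were -2.71 to -0.85. This family, too, was summed after its values were seen. Together the RLTR10 names had 136 and 183 peaks in KO, against 470 and 58 in WT. The WT libraries differed more from each other here, at 0.547% and 0.249%, than for RMER17, and 82 of the peaks named RLTR10A lay in WT 1 against 12 in WT 2.

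RLTR45 LTRs had 60 and 74 peaks in KO, against 155 and 46 in WT, which is 0.0540% and 0.0477% of the KO lists, against 0.180% and 0.197% of the WT lists (log2 -1.89, SE 0.35; adjusted p = 0.0590, limma). The replicates of each genotype lay close together. At equal list lengths that log2 difference was -0.99 (adjusted p = 0.175, limma). The RLTR44 names together had 62 and 86 peaks in KO, against 156 and 35 in WT. For the 4 tested names of RLTR44 and RLTR45, LTRs and internal parts alike, both KO lists lay below both WT lists. That order held for 28.5% of all 400 names. Outside RMER17, RLTR10, RLTR44 and RLTR45, 17 of the 82 tested ERVK names were below and 21 above. Of all 400 names 28.5% were below and 33.8% above. Those families were set apart after their values were seen, which itself lowers the number below among the rest. These counts therefore do not show that lower shares are confined to those families.

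Early transposons (ETn) and their coding relatives, MusD, still move in laboratory mice. The internal part ETnERV2-int had 197 and 255 peaks in KO, against 157 and 21 in WT, and its share overlapped between genotypes (0.177% and 0.165% in KO, against 0.183% and 0.0901% in WT). The LTR of these elements, RLTRETN_Mm, chosen after its values were seen, had 24 and 38 peaks in KO, against 115 and 22 in WT (log2 -2.28, SE 0.39; adjusted p = 0.0590, limma). MMETn-int, another internal part of this group and also chosen after its values were seen, had 49 and 48 peaks in KO, against 64 and 12 in WT, with both KO shares lower (log2 -0.77, SE 0.42; adjusted p = 0.290, limma).

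RLTR13 had the most names on the other side among the 12 families summed. Of its 9 tested LTR names, 5 had both KO lists above both WT lists, 4 overlapped and none was below. Its summed share was 0.526% and 0.478% in KO, against 0.421% and 0.378% in WT. RLTR13D5, chosen after its values were seen, had 61 and 90 peaks in KO, against 21 and 4 in WT (log2 1.37, SE 0.40; adjusted p = 0.123, limma). RLTR13C1, first of these names by mean share of the ERVK peaks over the 4 lists, had 0.0900% and 0.0710% in KO, against 0.0872% and 0.129% in WT, which overlap. RLTR13D6, also chosen after its values were seen, had more peaks in all, 120 and 137 in KO, against 69 and 11 in WT, with both KO shares higher (log2 0.63, SE 0.41; adjusted p = 0.363, limma). The share above for all 400 names was 33.8%, so higher shares in KO were common outside the ERVK class as well.

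The leading names of the remaining groups, by the same mean share, had few peaks. RLTR25B had 181 and 215 peaks in KO, against 99 and 36 in WT, and overlapped. RLTR17 had 78 and 114 in KO, against 107 and 20 in WT, with both KO shares lower (log2 -0.54). RLTR9E, an LTR of the MMERVK9 group, had 49 and 81 in KO, against 86 and 7 in WT, and BGLII had 73 and 63 in KO, against 37 and 13 in WT; both overlapped. The internal parts MYSERV16_I-int (75 and 116 in KO, against 32 and 11 in WT) and MERVK26-int (84 and 103 in KO, against 54 and 2 in WT) had higher shares in both KO lists. For MERVK26-int the log2 difference of 1.45 was 0.17 without WT 2 and 2.73 without WT 1. None of these differences passed the test, and counts of 2 to 36 peaks in WT 2 leave wide counting errors.

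**Figure D2:**
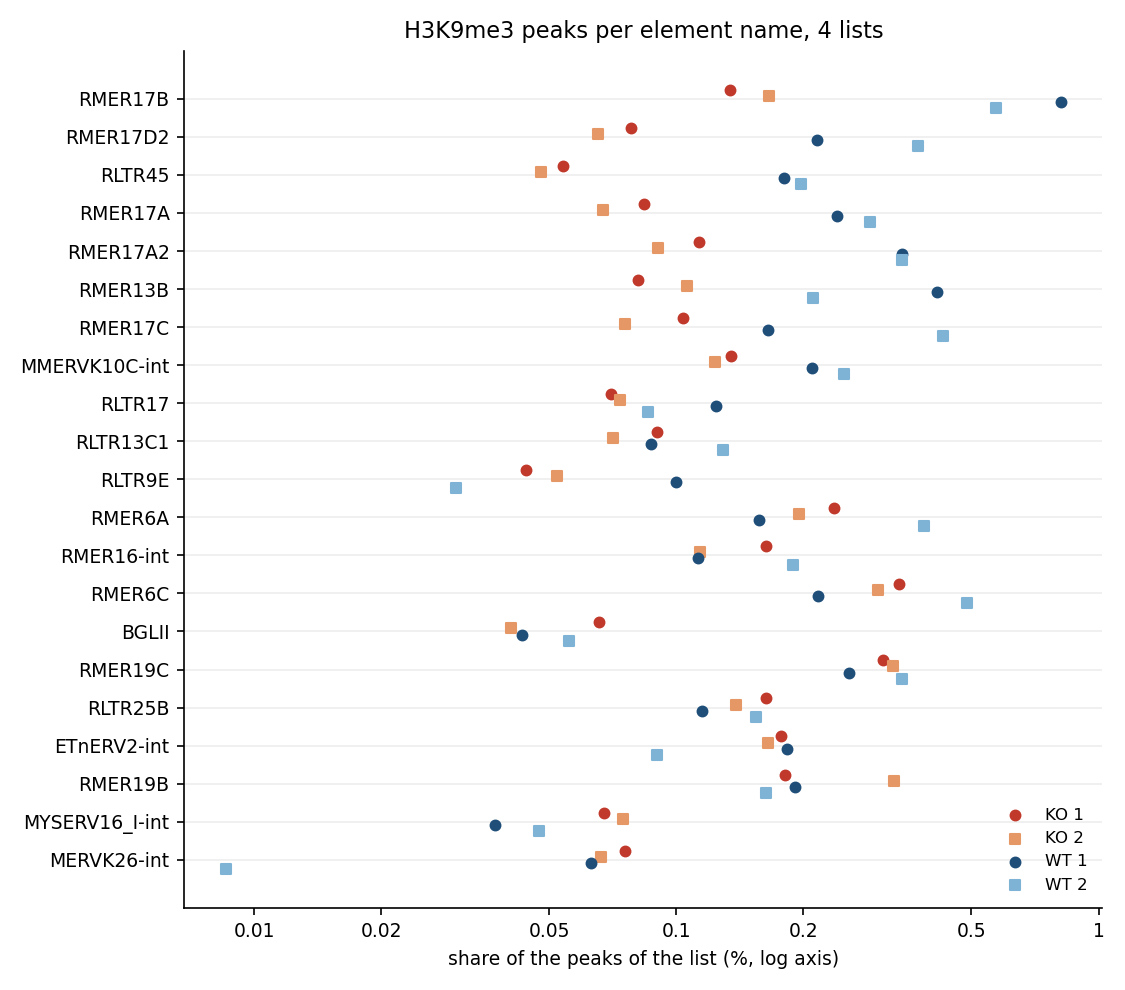
Share of the peaks of each list at 21 ERVK element names, on a log axis in percent, with 1 point for each of KO 1, KO 2, WT 1 and WT 2, ordered by the log2 difference between KO and WT. From RMER17B to MMERVK10C-int at the top both KO points lie left of both WT points (0.134% and 0.166% against 0.813% and 0.571% for RMER17B); in the middle of the order the points mix.

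LTRs and internal parts differed in this respect. Names of LTRs held 5.02% and 4.82% of the peaks of the KO lists, against 7.04% and 7.5% of the WT lists, while internal parts held 1.26% and 1.07% in KO, against 1.32% and 1.19% in WT. Internal parts made up 20.1% and 18.1% of the ERVK peaks in KO, against 15.7% and 13.7% in WT. The LTR shares did not overlap between genotypes, and the internal shares did.

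Peak widths overlapped between genotypes. The median width was 626 bp in KO 1 and 634.5 bp in KO 2, against 652 bp in WT 1 and 500 bp in WT 2. A width of exactly 500 bp was the most common value of each list; 49.6% and 45.4% of the ERVK peaks had it in KO, against 40.9% and 52.8% in WT. The log2 ratio of their median width to that of the other peaks of the same list was 0.32 and 0.01 in KO, against 0.05 and 0.00 in WT (exact permutation test, two-sided, p = 0.667). The difference between genotypes rests on KO 1, and without that library it was -0.01 in place of 0.14. Internal parts had a wider upper end: their 90th percentile was 1638 and 1708 bp in KO, against 1943 and 1704 bp in WT, while that of LTRs was 1308 and 1431 bp in KO, against 1398 and 1218 bp in WT.

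Scores were used only as ranks within a list, since their scaling is not given. The median ERVK peak stood at the 56.7th and 54.3rd percentile of the KO lists and at the 55.0th and 60.1st percentile of the WT lists, close to the middle of each list. Of the ERVK peaks, 14.9% and 11.8% lay in the top 10% of scores in KO, and 10.4% and 12.2% in WT. By the same measure IAP peaks had 20.7% and 17.6% in KO, and 15.9% and 17.8% in WT, and peaks at ERV1 elements had 24.1% and 21.5% in KO, and 23.4% and 25.8% in WT. Ranks from lists of different lengths show no change between lists.

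Families differed in rank within each list. RMER17, the family with most peaks in WT, held few of the highest scores: 9.28% and 5.83% of its peaks lay in the top 10% in KO, and 7.46% and 3.89% in WT. RLTR44 had 29.0% and 18.6% there in KO, and 21.2% and 34.3% in WT, and RMER19 had 21.1% and 15.6% in KO, and 17.4% and 23.3% in WT. MMERVK10C-int had 32.7% and 22.5% in KO, and 23.9% and 15.5% in WT. RLTR44 peaks also reached the greatest widths of the 12 families plotted by rank and width, with a 90th percentile of 2301 and 2270 bp in KO and 2221 and 2448 bp in WT.

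**Figure D3:**
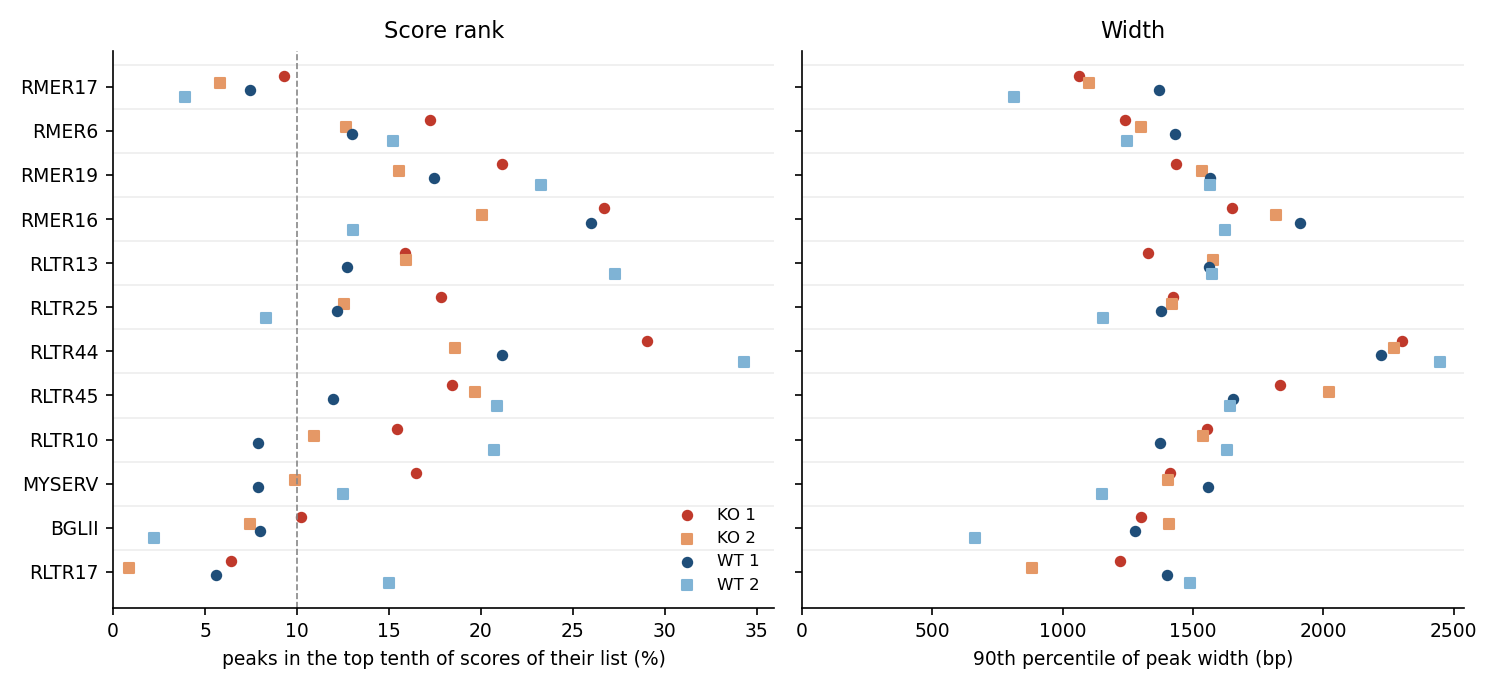
Share of the peaks of 12 ERVK families that lie in the top 10% of scores of their own list, in percent (left; the dashed line marks 10), and 90th percentile of their width in bp (right), with 1 point for each of KO 1, KO 2, WT 1 and WT 2. All 4 RMER17 points lie left of the dashed line (3.89 to 9.28%), and RLTR44 reaches the greatest widths (2221 to 2448 bp).

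The highest scored ERVK peak differed between lists. Scores are given here to identify the peaks and are not compared between lists. In KO 1 it was a peak of 7130 bp at the internal part MMTV-int, chr12:94122554-94129684 (mm9, intergenic, nearest gene Sel1l), with a score of 276.2. In KO 2 it was a peak of 9623 bp at RLTR44-int, chr10:7881523-7891146 (intergenic, nearest gene Tab2), with 278.7. In WT 1 it was a peak of 10772 bp at RLTR45-int, chr11:21083967-21094739, with 824.0, and in WT 2 a peak of 5395 bp at RMER17A2, chr11:21090342-21095737, with 454.5. The WT peaks overlap and lie in the same intergenic stretch near Vps54, which codes for a vesicle tethering subunit.

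Most peaks of the short list were found again in the longer ones. Of the ERVK peaks of KO 1, 53.1% overlapped a peak of KO 2 by at least 1 bp, 37.1% one of WT 1 and 14.9% one of WT 2. For KO 2 the shares were 39.6% in KO 1, 32.1% in WT 1 and 11.7% in WT 2. Of the ERVK peaks of WT 1, 38.2% were met in KO 1, 45.5% in KO 2 and 18.9% in WT 2, and of those of WT 2, 53.1% in KO 1, 55.3% in KO 2 and 67.1% in WT 1. In each of the 12 ordered pairs the share was at or above that of all peaks, by 0.13 to 9.71 percentage points. For KO 1, KO 2 and WT 1 the share was larger the longer the other list, while WT 2 shared most with WT 1.

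The families differed in which lists shared their peaks. Of the RMER17 peaks of WT 2, 27.2% were met in KO 1 and 31.1% in KO 2, and 57.4% in WT 1, which is shorter than either KO list. RMER17 was singled out for its low share in the KO lists, so its overlap with them is not a separate result. For RMER6 the same shares of WT 2 were 71.0% in KO 1, 72.9% in KO 2 and 62.8% in WT 1, and for RMER19 71.2%, 78.1% and 83.6%. RMER17B showed the RMER17 order, with 19.5% of its WT 2 peaks met in KO 1, 31.6% in KO 2 and 70.7% in WT 1. RMER17C differed, where of 100 WT 2 peaks 24 were met in KO 1, 35 in KO 2 and 30 in WT 1.

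**Figure D4:**
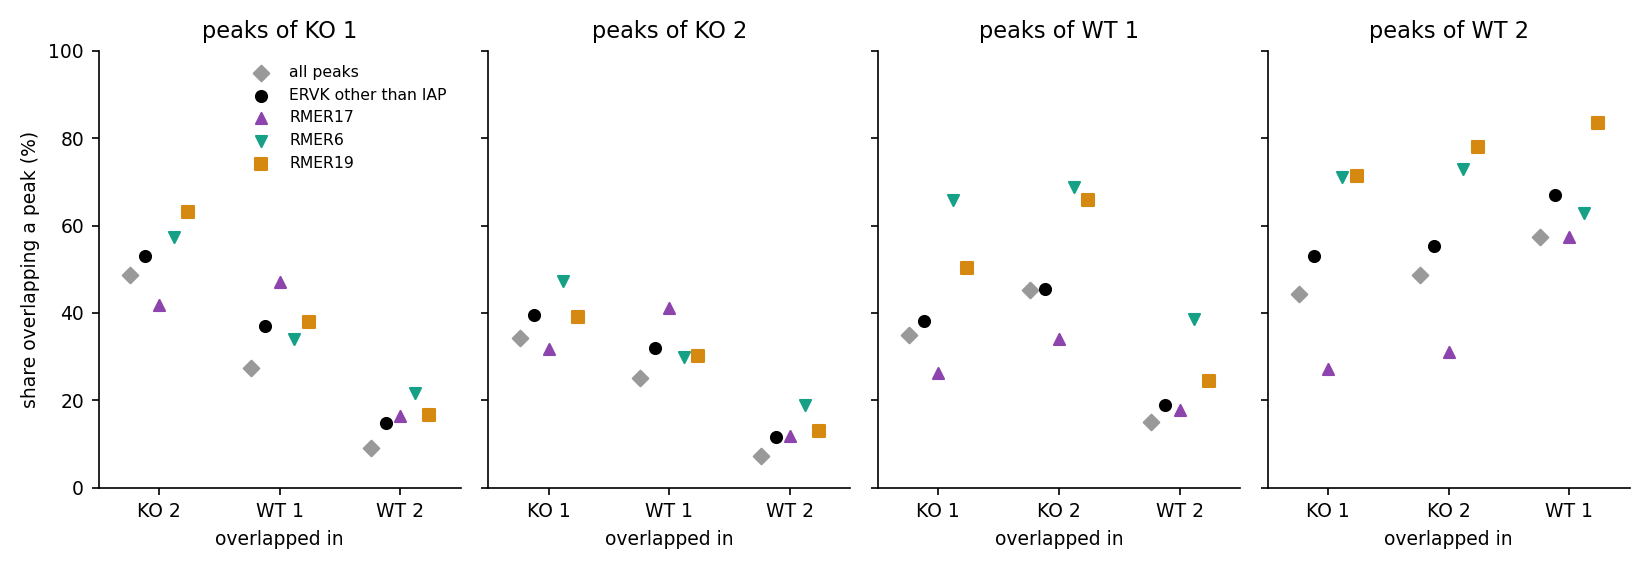
Share of the peaks of each list (1 panel per list) that overlap a peak of another list by at least 1 bp, in percent, for all peaks, ERVK elements other than IAP, and the RMER17, RMER6 and RMER19 families. In the panel of WT 2 the RMER17 points for the KO lists (27.2 and 31.1%) lie below all the others and the RMER6 and RMER19 points for the KO lists at 71.0 to 78.1%.

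Merged over the 4 lists, the peaks gave 250064 regions, of which 18439 held an ERVK peak. Of those, 1356 had a peak in all 4 lists (7.35%, against 3.06% of all regions), and 9834 had peaks of 1 list (53.3%, against 67.7% of all regions). Any ERVK peak makes a region count, so regions with peaks of several lists have more occasions to count. The definition thus sets part of these differences. Regions with peaks in both KO lists and no WT list numbered 2117 (11.5%, against 11.3% of all regions), a share near that of all regions. Regions in both WT lists and no KO list numbered 282 (1.53%, against 0.993% of all regions). Both KO lists are longer than both WT lists; at equal list lengths the shares were 5.39% in KO alone (5.22% of all regions) and 6.31% in WT alone (4.71% of all regions).

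By family, 4.80% of the 2791 RMER17 regions were in all 4 lists, 5.16% in both KO lists alone and 4.34% in both WT lists alone. RMER6 had 11.98% of 1719 regions in all 4 lists, 15.7% in both KO lists alone and 0.640% in both WT lists alone. Of the 282 regions found in both WT lists alone, 121 held an RMER17 peak, where 2791 of all 18439 ERVK regions did. RMER17 was singled out for its low share in the KO lists, so this count follows in part from that choice. RMER16-int, with 336 regions, had 19.6% in all 4 lists and none in both WT lists alone.

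Regions in all 4 lists were ordered by the lowest, over the lists, of the percentile of their highest scored peak, whatever repeat that peak was annotated to. In the first, chr5:23201557-23218151 (mm9), in introns of AI506816, the high scores were not those of ERVK peaks: in KO 1, WT 1 and WT 2 the highest peak was named MuLV-int, an ERV1 element. Its 1 ERVK peak, MYSERV6-int in WT 2, stood at percentile 85.5. In the second, chr7:113643788-113658916, intergenic, the highest peak of each list had no repeat name, and the ERVK peaks, RMER12B in KO 2 and in WT 2, stood at percentiles 83.5 and 60.1. The third, the stretch near Vps54, chr11:21083967-21095737, held ERVK peaks of all 4 lists. The highest of them stood at percentile 99.96 in KO 1 (RLTR45) and 99.76 in KO 2 (RLTR45-int). In the WT lists it stood at 99.98 in WT 1 (RLTR45-int) and 99.89 in WT 2 (RMER17A2). The lowest of these percentiles was thus that of KO 2.

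Of the regions in both KO lists alone, the highest were chr5:146405340-146408712, with Cyp3a41a and Cyp3a41b the nearest genes, and chr2:138365771-138370867, with Btbd3 the nearest gene. Each held 1 peak per KO list, of which 1 was an ERVK peak: RLTR12B in KO 1 at percentile 98.8, and RMER4B in KO 2 at percentile 99.2. Of those in both WT lists alone, the highest were chr15:97300748-97303497 at RMER17C (98.3 and 98.0), with Amigo2 the nearest gene, and chr10:38910136-38912581 at RMER6A (94.6 and 94.6), near Wisp3. All 4 are intergenic. A list with no peak there need not lack the mark, since WT 2 in particular had little depth.

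All ERVK peaks were annotated as intergenic or intronic. Each peak has a single detailed label, either a repeat or another feature. The rule that takes peaks by that label may therefore set this result, and part of the comparison with all peaks. Intergenic peaks made up 82.6% and 83.4% of them in KO, against 83.0% and 77.6% in WT, and 71.6% and 71.7% of all peaks in KO, against 69.2% and 65.9% in WT. Peaks within 10 kb of a gene's start made up 10.8% and 9.96% in KO, against 10.3% and 16.2% in WT. Of all peaks those shares were 7.81% and 7.51% in KO, against 11% and 16.4% in WT.

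RNA was asked of the genes whose start lay within 10 kb of an ERVK peak in at least 2 lists. There were 693, of which 632 were in the RNA table and 285 passed the minimum of a mean of 0.5 FPKM. The RNA came from expanded cells and the peaks from cultured cells, so the pairs are of different populations. Cd4 had 49.4 to 178 FPKM in KO DP, against 0.192 and 0.222 in KO SP and 0.144 to 0.495 in WT SP, and Cd3e 105 to 904 FPKM in the 10 libraries. The red cell marker Hba-a1 ranged over 0.207 to 855 FPKM in KO DP, 1.93 and 47.7 in KO SP and 4.40 to 650 in WT SP. Ehmt2 had 7.28 to 23.6 FPKM in KO DP, 12.6 and 13.6 in KO SP, and 18.1 to 42.6 in WT SP. A value per gene does not show whether the deleted part is read.

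In KO DP against WT SP, 34 of the 285 genes were called (11.9%, against 7.89% of the 11162 tested; limma on log2(FPKM + 1), adjusted p under 0.05). Of these, 12 were higher (4.21%, against 2.86%) and 22 lower (7.72%, against 5.03%). The median log2 difference was -0.40 for these genes and -0.38 for all genes tested, so changes read against that shift. With median-ratio scaling, which puts the median of all genes at -0.01, the calls were 34 higher (11.9%, against 9.70% of all genes) and 37 lower (13.0%, against 7.89%). The libraries carry numbers of 34 to 37 or of 738 to 741 in their titles. In the first range 4 of the 285 were called (1.40%, against 0.654%, or 73, of all genes). In the second 162 were called (56.8%, against 53.9%, or 6015, of all genes), a share near that of all genes. Of the 162, 141 were lower, and the median of all genes there was -0.82. KO DP 3 and 4, of that range, had the lowest summed FPKM of the 10 libraries, 292872 and 183632. The count therefore differed by range.

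Among the genes lower in KO DP, Cd72, an inhibitory receptor known from B cells, had 0, 0, 4.08 and 7.002 FPKM in KO DP and 98.5 and 81.7 FPKM in KO SP, against 61.5, 26.0, 96.9 and 96.8 FPKM in WT SP. Every KO DP library was below every WT SP library (log2 -4.65 in KO DP, SE 0.67; adjusted p = 0.00187, limma). ERVK peaks named MYSERV6-int or RMER19C occurred near its start in all 4 lists, the nearest 8.77 kb away. The B cell marker Cd79a did not share that order, with 4.43 to 11.8 FPKM in KO DP and 4.15 and 10.7 FPKM in KO SP, against 1.97 to 17.9 FPKM in WT SP.

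Ly6c1 and Ly6c2 code for near-identical surface antigens of memory CD8+ T cells, so reads may be split between them. Ly6c2 had 470, 423, 506 and 306 FPKM in KO DP, against 2063, 1361, 2904 and 3165 FPKM in WT SP (log2 -2.43, SE 0.34; adjusted p = 0.00182, limma). Ly6c1 had 107, 101, 106 and 58.6 FPKM in KO DP, against 421, 281, 521 and 618 FPKM in WT SP (log2 -2.27). For both genes the groups did not overlap, and the KO SP libraries lay within the WT SP range. Peaks at RLTR45 or RLTR45-int lay near the start of Ly6c1 in all 4 lists, the nearest 5.11 kb away. Pilrb1, a paired immunoglobulin-like receptor with a close paralog, was lower too (log2 -2.38).

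Ddx3y, a Y-linked RNA helicase, had 0.1003 to 0.543 FPKM in KO DP and 0.0626 and 0.193 FPKM in KO SP, against 21.5 to 27.9 FPKM in WT SP (log2 -4.34 in KO DP and -4.48 in KO SP). It is near MMERVK10C-int peaks of both KO lists. The KO lists held 14 and 13 peaks on chromosome Y, against 0 and 5 in the WT lists. The sex of the donors is not stated in the labels.

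Of the 5 named genes higher in KO DP, Mmp10, a matrix metalloproteinase, was the one near a peak of the WT lists alone, at RLTRETN_Mm, 7.68 kb from its start. It had 4.40, 2.80, 4.26 and 2.56 FPKM in KO DP and 0.221 and 0.0566 FPKM in KO SP, against 0.0916, 0.0615, 0.0470 and 0 FPKM in WT SP (log2 2.08 in KO DP, SE 0.21; adjusted p = 0.000182, limma). The log2 scale with 1 FPKM added understates this difference. Podnl1, which codes for a leucine-rich proteoglycan, had 100, 115, 58.9 and 39.2 FPKM in KO DP, against 6.93, 17.1, 19.0 and 15.9 FPKM in WT SP (log2 2.30). Ccnb1, the mitotic cyclin B1, had 17.1, 36.6, 69.3 and 32.4 FPKM in KO DP, against 8.84, 16.3, 4.01 and 4.25 FPKM in WT SP (log2 2.12). In these 3 genes each KO DP library was above each WT SP library.

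The interferon-inducible genes Plscr1, a phospholipid scramblase, and Ube2l6, an enzyme that conjugates ISG15, overlapped between groups. Plscr1 had 24.6, 25.2, 11.7 and 7.60 FPKM in KO DP, against 1.71, 11.6, 1.56 and 1.47 FPKM in WT SP (log2 2.10; adjusted p = 0.0388, limma). Ube2l6 had 34.6, 30.2, 13.9 and 8.54 FPKM in KO DP, against 3.34, 13.9, 2.09 and 2.39 FPKM in WT SP (log2 1.97; adjusted p = 0.0485, limma). In both genes WT SP 2 stood apart from the other WT SP libraries. With no filter on low values the calls of Plscr1, Ube2l6 and Ccnb1 were lost (adjusted p of 0.134, 0.147 and 0.108, limma). They were also lost in 8, 8 and 6 of the 10 fits that left out 1 library, with the highest adjusted p without WT SP 3 (0.135, 0.162 and 0.108, limma) and log2 differences of 1.88 to 2.67, 1.69 to 2.48 and 1.79 to 2.48. The other 7 named genes kept their calls in these fits. All 10 had the same sign in both ranges of title numbers, 2 libraries against 2 in each, but Ccnb1 had a log2 difference of 1.00 within 34 to 37 and 3.24 within 738 to 741.

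**Figure D5:**
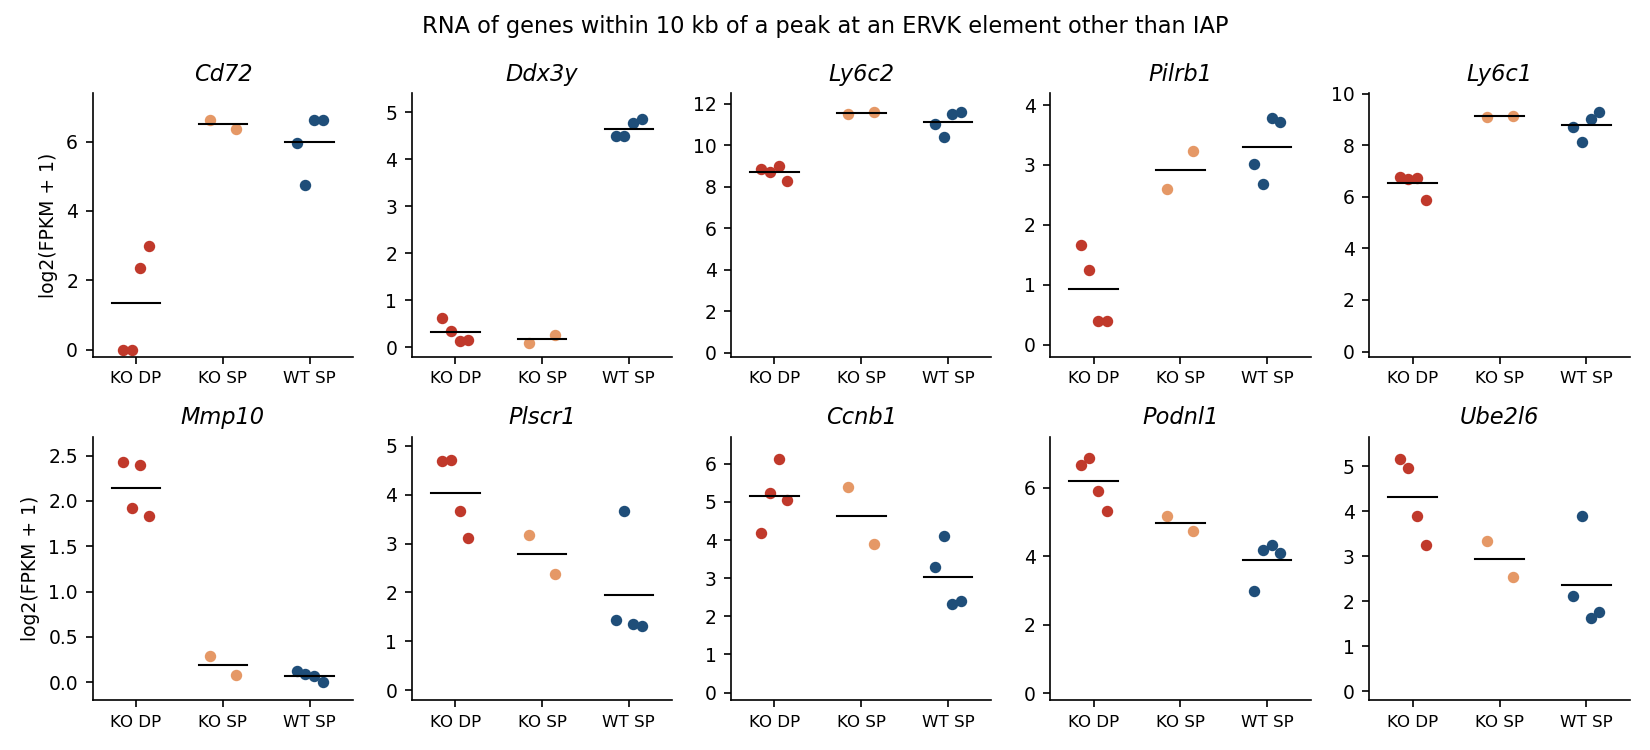
RNA as log2(FPKM + 1) of 10 genes within 10 kb of an ERVK peak, with 1 point per library of KO DP (n = 4), KO SP (n = 2) and WT SP (n = 4) and a line at the group mean. In the upper row KO DP lies below WT SP and in the lower row above it, with overlap for Plscr1 and Ube2l6; of the upper row, Ddx3y is the gene in which KO SP lies near KO DP.

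In KO SP against WT SP, 1 of the 285 genes was called, Ddx3y (0.351%, against 0.116% of all genes tested), which was lower. Ddx3y is Y-linked and the sex of the donors is not stated. It was lower in every KO DP and KO SP library than in every WT SP library. Genotype and a possible difference in sex therefore cannot be told apart, in this call or in either RNA comparison. Of all genes 0.0717% were called higher and 0.0448% lower. At an unadjusted p under 0.05 there were 11 of the 285 and 384 of all (limma). The median log2 difference was 0.15 for these genes and 0.11 for all. Both comparisons share the WT SP libraries, so their results are not independent.

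Of a list of 20 helper T cell genes, none had a start within 10 kb of an ERVK peak in 2 lists. Ccr6 had an RMER19A peak 4.67 kb from its start, in KO 2 alone. Of all 23234 gene symbols with RNA values, 632 met the rule of 2 lists. At so low a share, a list of 20 genes is too short to show a difference from all genes. In KO DP 12 of the 15 tested were higher, against 2.86% of all genes (limma). In KO SP none was higher, against 0.0717% of all genes (limma). The list includes Cd4, which defines the KO DP cells. A list of 14 genes of H3K9 methylation and its readers had no call in either comparison, with medians of -0.17 in KO DP and -0.26 in KO SP, where all genes had -0.38 and 0.11. For Uhrf1 this depended on the setting. Its log2 difference in KO DP was 1.21 (adjusted p = 0.0638, limma). It was called with median-ratio scaling (log2 1.64, adjusted p = 0.0128, limma) and with the replicate block (adjusted p = 0.0357, limma). Setdb1 had 4.28 to 13.3 FPKM in KO DP, 8.21 and 8.55 in KO SP, and 9.52 to 13.5 in WT SP (log2 -0.57 in KO DP, adjusted p = 0.266, limma). Trim28 had 5.68 to 26.6 FPKM in KO DP, 15.7 and 20.002 in KO SP, and 23.9 to 33.7 in WT SP (log2 -0.94, adjusted p = 0.169, limma). Neither difference passed the test.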

How the data were processed

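Per the submitters' processing notes the authors used Bowtie, HOMER and mm9 to make the peak lists; no version, threshold or use of the 4 input libraries is stated in the sources used here. Each peak has a score that the authors deposited, of unknown scaling, and a width in bp. RNA values are FPKM deposited by the authors (TopHat and Cufflinks, per the submitters' processing notes) in 10 libraries, whose sums ranged from 183632 to 504013.

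Peaks were read by their deposited repeat annotation and merged where they overlapped by at least 1 bp. Percentiles rank scores within a list. Shares per genotype were compared by exact permutation. limma 3.58.1 (R 4.3.3), checked on simulated data, was fitted with trend to log2((peaks + 0.5)/(list peaks + 1)) and to log2(FPKM + 1), genes having a mean of at least 0.5 FPKM. RNA libraries of KO DP and WT SP with the same replicate number deviated together (r = 0.103 to 0.293), but so did those of different number in the same range of title numbers (r = 0.0685 to 0.243), so pairing beyond that range is not shown. A fit with the replicate number as a block called 46 in place of 34 near genes in KO DP (16.1%, against 12.9% of all genes). In KO SP it called 5 in place of 1 (1.75%, against 3.10% of all genes). That block sets the KO SP libraries, of titles 738 to 741, beside WT SP 1 and 2, of titles 34 to 37. Its KO SP counts are thus not from matched libraries. With the title range as a term the counts were 69 and 1.

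Element names described are those with at least 2% of the ERVK peaks of a list on average and the most frequent name of each name group; genes are the 5 called furthest in each direction, leaving out clone names. Members, lists and families were chosen with earlier results of these data known. KO DP 3 and 4 and the KO SP libraries share title numbers and were fitted as independent. Element sequences were not used here.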

Additional observations from a re-analysis of the deposited data

Results flagged for a closer look

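Of 20 groups of 4 RNA libraries looked at for the 10 genes near ERVK peaks, 3 held a library far from the other 3, where chance gives about 1 in 20. Ly6c1 had 58.6 FPKM in KO DP 4, with 101 to 107 in the other KO DP libraries. Plscr1 had 11.6 FPKM in WT SP 2, with 1.47 to 1.71 in the other WT SP libraries. Ube2l6 had 13.9 FPKM in WT SP 2, with 2.09 to 3.34 in the others. KO DP 4 also had the lowest summed FPKM of the 10 libraries, 183632. The cause was not tested.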

How the results depend on the processing

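The difference in the share of peaks and of covered length kept its direction under each alternative run, with ranges of -3.07 to -2.01 and of -3.18 to -2.23 percentage points. The width difference of 0.14 turned to -0.040 at equal list lengths, to -0.045 for scores above the list median and ranged from -0.011 to 0.30 without 1 library. The share of regions in both KO lists alone (11.5%) was 9.63% with an overlap of 50% of the shorter peak, 5.39% at equal lengths, 10.7% above the median score and 12.7 to 39.8% without 1 library; that in both WT lists alone (1.53%) was 6.31% at equal lengths and 3.09 to 17.2% without 1 library, since fewer lists then define it. Called ERVK names (0) numbered 2 at equal lengths (3 of all 222 names), 8 without satellite and simple repeat peaks (15 of 365), 4 with a mean of at least 30 peaks (8 of 245) and 0 to 50 without 1 library (50 without WT 1 and 41 without WT 2, against 207 and 156 of all 400, where the lone WT library is assumed to vary like the others). With the replicate block they numbered 10 (28 of all 400), all lower in KO, though the ChIP numbers are shared only as numbers (r = -0.0989 between the deviations of KO 1 and WT 1). The log2 share difference changed sign for RMER6C (0.070) and RMER16-int (0.24) and RLTR13C1 (0.23) at equal lengths and for RMER19C (-0.079) above the median score. Without 1 library it ranged from -0.63 to 0.55 for RMER6C, -0.12 to 0.31 for RMER19C, -0.86 to 0.45 for RMER6A, -0.10 to 0.89 for ETnERV2-int, -0.056 to 0.38 for RLTR25B, -0.49 to 0.27 for RMER16-int, -0.30 to 0.40 for BGLII and -1.06 to 0.59 for RLTR9E. Near genes called in KO DP (34) numbered 21 with no filter (3.32%, against 2.51% of all genes), 71 with median-ratio scaling (24.9%, against 17.6%), 69 with the title range as a term (24.2%, against 19.0%), 100 of 856 within 50 kb (11.7%, against 7.89%) and 15 to 43 without 1 library (15 without WT SP 3, 16 without WT SP 4, 17 without WT SP 1, 21 without KO DP 3 or either KO SP library); their median of -0.40 was 0.016 with no filter. In KO SP (1) they numbered 2 with that scaling and 5 with the replicate block, which mixes the title ranges. Leaving out chromosomes X and Y was chosen after the data were seen. The causes were not tested. Depth limits WT 2 most: its lowest score is worth 4 steps, against 8 or 9 in the other lists.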
